A study of Mus musculus with 6 samples.

Results

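The subject is a set of 7 mouse genes of the classical complement pathway, C1s1, C1s2, C1ra, C1rb, C1rl, C4a and C4b, out of 55487 genes in the deposited tables. They were taken by symbol, and they were chosen with their difference between the genotypes already known. Their values between genotypes are therefore given as a description, without p-values. RNA sequencing was done on cultured, untreated primary hepatocytes from 2 groups of 3 libraries each. Alb/MDA-9 animals carried a human MDA-9/SDCBP transgene, which encodes the adaptor protein syntenin, tagged with HA at its C terminus and driven by the albumin enhancer and core promoter, which are active in hepatocytes. WT animals were littermates without the transgene. All animals were on a B6CBAF1 background, came from crosses of WT with heterozygous transgenic mice, and ate regular chow. Their age and sex are not given in the labels, and the labels do not say that the 3 libraries of a group came from separate animals or cultures. Segments of parental-strain chromosome shared by the animals of a group cannot be told apart from an effect of the transgene.

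C1 is the complex that starts the classical pathway. C1q binds antibody on a surface, the protease C1r then activates itself and cleaves the protease C1s, and C1s cleaves C4 and C2, whose fragments form the enzyme that cleaves C3. Hepatocytes are the main source of plasma C1r, C1s and C4, whereas C1q comes mostly from macrophages. The mouse genome holds duplicated copies of these genes. C1ra and C1s1 are known as the liver forms, and C1rb and C1s2 were described from male reproductive tissues. C4b encodes complement C4, and C4a corresponds to sex-limited protein (Slp), a copy known for androgen-dependent expression in some strains.

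The libraries held 16403918 to 19046739 reads on the annotated strand of genes. Levels are given in CPM (reads of a gene for every 1000000 reads of its library, with library sizes scaled by TMM factors). The limit for a gene without any reads was 3 reads, which is 0.158 to 0.183 for every 1000000 reads of a library before TMM scaling. This limit covers counting error only. The second principal component, with 17.0% of the variance, set Alb/MDA-9 3 apart. For comparison with the marker counts that follow, 7.35% of all tested genes rose and 7.09% fell in Alb/MDA-9 by the same test. Of 9 hepatocyte markers with an identifier all 9 were measured, 1 rose and 2 fell, with a summed level of 75340 to 78775 CPM in WT against 78817 to 93655 CPM in Alb/MDA-9. Markers of other liver cells were present as well. Of 12 macrophage markers 8 fell in Alb/MDA-9, and their summed level was 455 to 475 CPM in WT against 283 to 427 CPM in Alb/MDA-9. Of 10 stellate cell and fibroblast markers 5 fell, with 293 to 314 CPM in WT against 196 to 263 CPM in Alb/MDA-9. Of 10 endothelial markers 4 fell, with 217 to 233 CPM and 158 to 170 CPM. Of 6 bile duct and mesothelial markers 2 rose and 2 fell, with 58.5 to 65.9 CPM in WT against 80.2 to 83.9 CPM in Alb/MDA-9, and the mesothelial gene Upk3b was at 0 in every library, the only marker on these lists without reads. Single genes weighed heavily in some sums, namely Cd68 for macrophages, Reln for stellate cells and Alb for hepatocytes. The WT means of Cd68, Reln and Alb were 271 ± 11.4, 149 ± 6.69 and 56538 ± 2237 CPM (SD, n = 3). Their Alb/MDA-9 means were 248 ± 97.5, 138 ± 34.4 and 63059 ± 7577 CPM. The groups overlapped for each of these genes, and none was counted as a rise or fall. The part of the other liver cells in the results that follow was not tested. In such mixed cultures fewer cells of a type and less RNA per cell cannot be told apart.

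The 5 genes of the C1r and C1s group lie side by side on chromosome 6 (GRCm38). From low to high coordinates they are C1rl (124493113 to 124510643), C1ra (124512405 to 124523443), C1s1 (124530345 to 124542359), C1rb (124570294 to 124581171) and C1s2 (124624625 to 124636085). The C1r genes and C1rl are on the plus strand and the C1s genes on the minus strand. C4b (34728380 to 34743882) and C4a (34809092 to 34823464) lie on the minus strand of chromosome 17, 65209 bases apart. GENCODE M21 annotates 6 of the 7 genes as protein coding. C4a is annotated there as a processed transcript without a coding sequence, and in RefSeq as a transcribed pseudogene.

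The paralogues are close enough in sequence that part of each transcript cannot be assigned to 1 gene by a short read. The coding sequences of C1ra and C1rb were identical at 98.0% of 2118 aligned bases, with an unbroken identical run of 757 bases. Those of C1s1 and C1s2 were identical at 95.6% of 2064 bases, and the coding sequence of C4b matched the C4a transcript at 96.1% of 5204 bases. The C4 alignment held 2 gaps of 10 bases in all, and 1 of these was not a multiple of 3 long. STAR counts only reads placed at a single position, so reads from identical stretches are not counted for either copy. Of the stretches of 100 bases in the transcripts of each gene, the share found in no other annotated gene was 57.3% for C1rb, 64.1% for C1ra, 82.6% for C1s1, 91.2% for C1s2, 84.8% for C4b, 86.9% for C4a and 100% for C1rl. The C1s1 stretches found elsewhere were 225 shared with C1s2 and 345 shared with Gm16567, a gene on the opposite strand. Reads over Gm16567 still count for C1s1 on the annotated strand, so 82.6% understates the part of C1s1 that can be counted. C1rl is the distant member of the group, and its coding sequence matched that of C1ra at 65.8% over the best 838 aligned bases.

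The coding windows of 60 bases with the most differences are shown because it is at such positions that a read can be told to come from 1 copy. Capitals mark the bases that differ between the copies, and positions are counted from the first base of the start codon. The window of C1s1 covers coding bases 1484 to 1543 and holds 17 differences. That of C1ra covers bases 1798 to 1857 and holds 11 differences, and that of C4b covers bases 2705 to 2764 and holds 13. Sequences are those of the GENCODE M21 transcripts.
C1s1: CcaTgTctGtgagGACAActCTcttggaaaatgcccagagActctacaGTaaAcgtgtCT
C1s2: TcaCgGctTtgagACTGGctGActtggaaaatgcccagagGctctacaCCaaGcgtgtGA
C1ra: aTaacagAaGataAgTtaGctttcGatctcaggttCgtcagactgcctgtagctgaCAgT
C1rb: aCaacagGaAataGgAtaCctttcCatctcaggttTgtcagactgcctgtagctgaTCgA
C4b: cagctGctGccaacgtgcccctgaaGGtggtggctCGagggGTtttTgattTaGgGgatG
C4a: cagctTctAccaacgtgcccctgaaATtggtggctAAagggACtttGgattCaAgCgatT

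C1s1, which encodes the C1s protease of plasma, was nearly silent in WT libraries and among the more abundant transcripts in Alb/MDA-9 libraries. It had 19, 2 and 4 reads in WT 1, 2 and 3 and 4433, 4399 and 3478 reads in Alb/MDA-9 1, 2 and 3. These correspond to 0.959, 0.103 and 0.237 CPM in WT and to 245, 256 and 209 CPM in Alb/MDA-9. The groups did not overlap, and the lowest Alb/MDA-9 library was far above the highest WT library. The means were 0.433 ± 0.461 and 237 ± 24.4 CPM (SD, n = 3). On the log2 scale Alb/MDA-9 was higher by 9.04 (SE 0.25). WT 1 held most of the WT reads of the gene, and without it the log2 change was 10.43. C1s1 entered the fit through the Alb/MDA-9 libraries, since only 1 of 3 WT libraries reached the filter's level of 0.541 CPM. Per length, the level in Alb/MDA-9 was 75.7 ± 7.80 RPKM (CPM per 1000 bases of exon), above that of 96.2% of tested genes, whereas the WT level of 0.138 ± 0.147 RPKM was above that of 2.29%.

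C1s2, the paralogue, was low in both groups. It had 1.97, 4.05 and 3.49 CPM in WT 1, 2 and 3 and 2.43, 0.990 and 0.963 CPM in Alb/MDA-9 1, 2 and 3. WT 1 lay below Alb/MDA-9 1, so the groups overlapped. The log2 change was -1.10 (SE 0.39), and it was -1.69 without Alb/MDA-9 1. The sum of C1s1 and C1s2 was 3.60 ± 0.622 CPM in WT against 238 ± 24.7 CPM in Alb/MDA-9 libraries (SD over the 3), and the log2 change was 6.05 (SE 0.13). The WT value of the sum came mostly from C1s2. C1s1 held 32.8%, 2.47% and 6.35% of the family's reads in WT 1, 2 and 3, with exact 95% binomial intervals of 21.0 to 46.3%, 0.300 to 8.64% and 1.76 to 15.5%. In Alb/MDA-9 it held 99.0 to 99.6%.

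**Figure D1:**
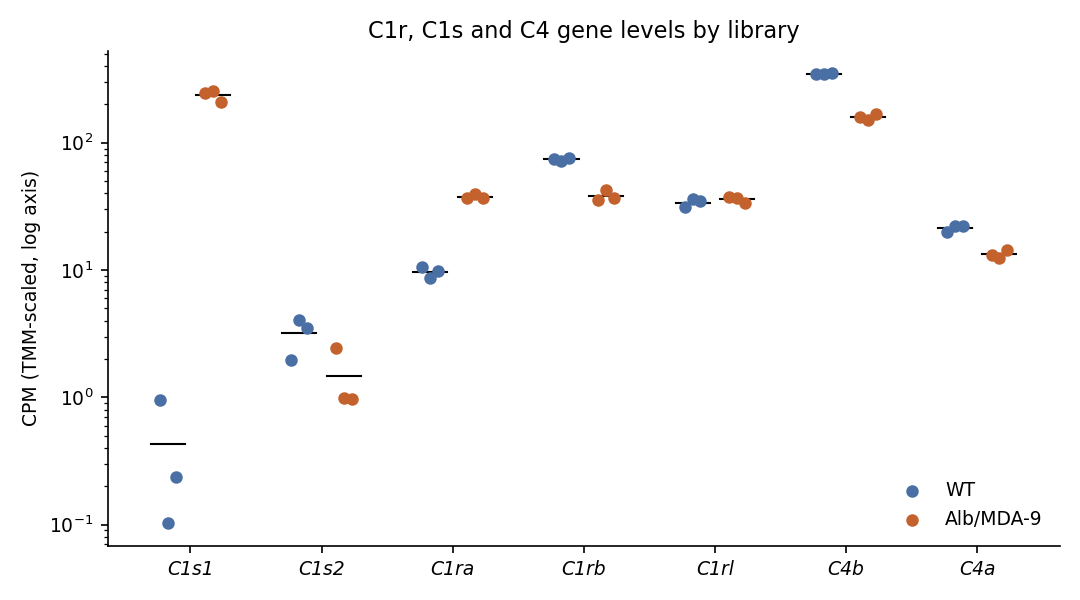
Level of each gene by library in TMM-scaled CPM on a log axis, WT in blue and Alb/MDA-9 in orange; points are libraries and black lines group means (n = 3). C1s1 has a mean of 0.433 CPM in WT against 237 CPM in Alb/MDA-9, C1ra is higher and C1rb, C4b and C4a are lower in all 3 Alb/MDA-9 libraries, and the groups overlap for C1s2 and C1rl.

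C1ra and C1rb, both of which encode forms of the C1r protease that activates C1s, differed between the genotypes in opposite directions. C1ra had 10.6, 8.72 and 9.88 CPM in WT 1, 2 and 3 and 36.5, 39.7 and 36.6 CPM in Alb/MDA-9 1, 2 and 3. Every Alb/MDA-9 library was above every WT library, and the log2 change was 1.95 (SE 0.10). C1rb had 74.5, 72.0 and 75.9 CPM in WT against 35.7, 42.4 and 36.5 CPM in Alb/MDA-9. Here every Alb/MDA-9 library was below every WT library, and the log2 change was -0.96 (SE 0.08). C1rb, the form described from male reproductive tissue, thus held most of the assigned C1r reads in the WT libraries. Reads can be assigned only where the copies differ. Whether strain differences at these positions move reads between C1ra and C1rb was not tested.

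The 2 differences nearly offset each other in the sum. C1ra and C1rb together had 83.9 ± 2.72 CPM in WT against 75.8 ± 5.44 CPM in Alb/MDA-9 libraries (SD over the 3). The log2 change was -0.15 (SE 0.07), and the libraries of the groups overlapped. C1ra held 12.4%, 10.8% and 11.5% of the family's reads in WT 1, 2 and 3 and 50.5%, 48.3% and 50.1% in Alb/MDA-9 1, 2 and 3. The exact 95% intervals of these shares spanned 9.30 to 14.1% in WT and 45.7 to 53.2% in Alb/MDA-9. With library totals in place of TMM factors the log2 change of the sum was -0.25.

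Since the C1r sum was nearly level and the C1s sum was not, their balance differed between the genotypes. The C1s sum was 0.0344, 0.0514 and 0.0434 times the C1r sum in WT 1, 2 and 3, and 3.43, 3.13 and 2.88 times the C1r sum in Alb/MDA-9 1, 2 and 3. These ratios are of CPM, without a correction for length.

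**Figure D2:**
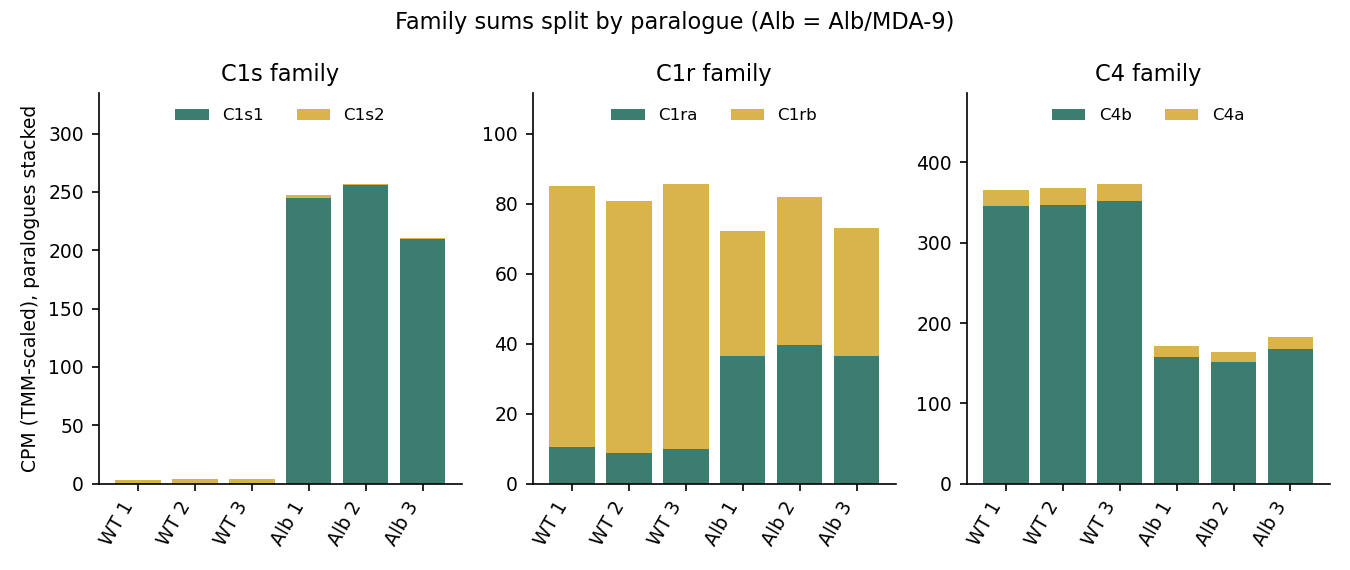
TMM-scaled CPM of the C1s, C1r and C4 families in each library, with the paralogues stacked in bars that start at 0; Alb stands for Alb/MDA-9. C1s is almost absent in WT, the C1r sum is near level (83.9 and 75.8 CPM) while its make-up shifts, and the C4 sum is lower in Alb/MDA-9 with C4b as the main part in every library.

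C1rl, which encodes a C1r-like protease outside the C1 complex, differed little. It had 31.1, 36.1 and 34.6 CPM in WT 1, 2 and 3 and 37.4, 36.9 and 33.5 CPM in Alb/MDA-9 1, 2 and 3. The groups overlapped, and the log2 change of 0.08 (SE 0.09) turned to -0.02 with library totals. C1rl ends 1761 bases before C1ra begins, on the same strand.

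C4b, which encodes the substrate of C1s, was lower in Alb/MDA-9. It had 345, 347 and 351 CPM in WT 1, 2 and 3 and 158, 151 and 168 CPM in Alb/MDA-9 1, 2 and 3. The WT libraries lay close together, at 348 ± 3.16 CPM against 159 ± 8.59 CPM (SD, n = 3), and the groups did not overlap. The log2 change was -1.13 (SE 0.07). C4a had 19.8, 22.0 and 22.3 CPM in WT against 13.2, 12.5 and 14.4 CPM in Alb/MDA-9, again without overlap, a log2 change of -0.68 (SE 0.11). The C4 sum was 369 ± 4.29 CPM in WT against 172 ± 9.53 CPM in Alb/MDA-9, a log2 change of -1.10 (SE 0.07). C4b held 94.0 to 94.6% of C4 reads in WT and 92.1 to 92.3% in Alb/MDA-9. The macrophage, stellate and endothelial marker sums given above were lower in the same libraries, and their part in the C4 difference was not tested.

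The order of the genes by level per length differed between the genotypes. In WT it ran from C4b (61.1 ± 0.555 RPKM, SD, n = 3) through C1rb (30.5 ± 0.810), C1rl (11.3 ± 0.858), C4a (3.45 ± 0.223), C1ra (3.26 ± 0.312) and C1s2 (1.19 ± 0.405) to C1s1 (0.138 ± 0.147). C4a and C1ra overlapped, and the other neighbours in this order did not. In Alb/MDA-9 C1s1 came first, followed by C4b (27.9 ± 1.51), C1rb (15.7, range 14.7 to 17.5), C1ra (12.6 ± 0.605), C1rl (11.9 ± 0.705), C4a (2.15 ± 0.152) and C1s2 (0.549 ± 0.315). There C1ra and C1rl overlapped, and the other neighbours did not. The lengths count all exon bases of a gene, and sequence shared with a copy lowers the level. Per 1000 stretches of 100 bases found in no other gene, a scale added after seeing the data, C1ra in WT (4.72 to 5.72 CPM) lay above C4a (3.39 to 3.82 CPM) and took the fourth place. On that scale C1ra in Alb/MDA-9 (19.8 to 21.5 CPM) also lay above C1rl (11.5 to 12.8 CPM) without overlap.

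Over all genes, 13296 passed the low-count filter and 1920 of them (14.4%) passed the edgeR quasi-likelihood test at a Benjamini-Hochberg adjusted p of 0.05, with 7.35% higher and 7.09% lower in Alb/MDA-9. All 7 genes of the set were tested, 5 passed, and of these 2 were higher (C1s1, C1ra) and 3 lower (C1rb, C4a, C4b). The libraries of the groups did not overlap for 5 of the 7, against 33.6% of all tested genes. Because the set was picked on this comparison, nothing is read from these counts. The median absolute log2 change over all tested genes was 0.17.

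RefSeq windows, from 250 bases before to 50 bases after a RefSeq start, were listed for 5 of the 7 genes, namely C1rl, C1ra, C1s1, C1rb and C1s2. The starts of C1rl, C1s2 and the first of 2 listed for C1s1 were those of the GENCODE genes. The RefSeq starts of C1ra and C1rb lay 216 and 136 bases inside the GENCODE genes, so that 266 and 186 bases of their windows of 300 were within the gene. The C1ra and C1rb windows shared a stretch of 148 aligned bases with 93.9% identity, at bases 152 to 300 of the C1ra window and 1 to 149 of the C1rb window, and all of it lies inside the C1ra gene as GENCODE places it. The best local alignment of the C1s1 and C1s2 windows covered 11 bases. The 25 bases that hold both motifs of the C1r genes are shown because they were identical in genes that differed in opposite directions, and they lie in the 5′ untranslated region by GENCODE. The 250 bases before the start are shown for C1s1, the gene with the largest difference, and for its copy. Coordinates are on GRCm38.p6, sequences read 5′ to 3′ on the strand of the gene, and capitals mark matches to the motifs described after them. They cover chr6:124512637-124512661 for C1ra, chr6:124570295-124570319 for C1rb, chr6:124542360-124542609 for C1s1 and chr6:124636086-124636335 for C1s2.
C1ra: TTATGCAAatgcttcaTTCCCTGAA
C1rb: TTATGCAAatgcttcaTTCCCTGAA
C1s1: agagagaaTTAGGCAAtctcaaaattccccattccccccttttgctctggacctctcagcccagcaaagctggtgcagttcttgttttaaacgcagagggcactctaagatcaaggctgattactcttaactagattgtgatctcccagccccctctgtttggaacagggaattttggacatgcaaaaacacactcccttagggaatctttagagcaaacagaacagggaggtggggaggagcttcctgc
C1s2: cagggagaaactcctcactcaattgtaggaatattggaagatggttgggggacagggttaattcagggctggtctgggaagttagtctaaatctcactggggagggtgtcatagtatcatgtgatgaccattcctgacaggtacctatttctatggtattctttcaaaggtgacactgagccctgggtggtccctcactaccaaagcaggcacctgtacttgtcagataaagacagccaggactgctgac

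Motifs were searched on both strands by their letters. The C/EBP element TTGCNNAA, bound by a factor family of the acute phase response, was found in 10.8% of all 32851 RefSeq windows, and the STAT element TTCNNNGAA in 8.30%. C1ra and C1rb each held 1 match of both, spaced alike within the shared stretch. Relative to the RefSeq start, the C/EBP match began at 16 in C1ra and at -135 in C1rb, and the STAT match at 32 and at -119. C1s1 held a C/EBP match at -242, and C1rl held one at -243 together with an E-box (CACGTG, in 7.15% of windows). C1s2 held none of the motifs. TATAAA (13.6% of windows), the core of the interferon element ISRE (3.44%) and kappaB (4.51%) had no match in the windows of the 5 genes.

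The gene neighbourhoods were examined next, since position had not been used to choose the set. Within 500 kb of the C1r and C1s genes 23 other genes were tested, of which 3 were higher and 5 lower in Alb/MDA-9 (34.8%, against 14.4% of all tested genes), with a median log2 change of -0.03. The tested genes nearest to the cluster did not pass. Pex5, a peroxisomal import receptor gene on the side of C1rl, had a log2 change of 0.08 (SE 0.07). On the side of C1s2, the phospholipid-remodelling enzyme gene Lpcat3 had 0.09 (SE 0.07) and Emg1 had -0.16 (SE 0.08). Next to Emg1, Phb2, which encodes a prohibitin of the mitochondrial membrane, had 0.02 (SE 0.07). Farther out, Cd163, which encodes the macrophage receptor for haptoglobin-haemoglobin, fell from 23.5 ± 0.877 to 12.1 ± 0.557 CPM (SD, n = 3), a log2 change of -0.95 (SE 0.10). The enolase gene Eno2, the cell-cycle gene Cdca3 and Pianp also fell, with log2 changes of -1.69 (SE 0.32), -1.92 (SE 0.26) and -2.04 (SE 0.49). Pianp was at 0.651 to 1.69 CPM in WT. Eno2 was at 20.3, 17.3 and 4.64 CPM in Alb/MDA-9 1, 2 and 3. Without Alb/MDA-9 3 the Eno2 log2 change was -1.28 (SE 0.09). Ptms, which encodes parathymosin, rose by 0.42 on the log2 scale (SE 0.08) and the chromatin remodeller gene Chd4 by 0.38 (SE 0.08). Pianp no longer passed when WT 1, WT 2 or Alb/MDA-9 2 was left out (log2 change -2.01, -1.72 and -1.92), and the number of changed neighbours fell to 5 without any of the same 3 libraries.

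The C4 genes lie in the major histocompatibility complex, between the class II and class I genes. Within 500 kb 45 other genes were tested, of which 2 were higher and 6 lower (17.8%, against 14.4% of all tested genes). Their median log2 change was -0.08. Cyp21a1, the steroid 21-hydroxylase gene between C4b and C4a, fell from 6.75 ± 0.799 to 3.09 ± 0.999 CPM (SD over 3 libraries each), a log2 difference of -1.13 (SE 0.24; adjusted p = 0.00683 by edgeR). Tnxb, which encodes the matrix protein tenascin-X and ends 8565 bases before C4b, fell from 1.15 ± 0.0770 to 0.153 ± 0.0848 CPM. Its log2 change was -2.85 (SE 0.51), and -2.30 with reads of either strand. The Alb/MDA-9 libraries (0.221, 0.0582 and 0.181 CPM) lay near or below the limit given above for a gene without reads, so the size of this fall is imprecise. The class II genes H2-Ab1 and H2-Aa fell as well, with log2 changes of -2.79 (SE 0.29) and -1.31 (SE 0.32), and the class I gene H2-D1 fell from 438 ± 17.7 to 200.5 ± 9.25 CPM, a change of -1.13 in log2 (SE 0.07). Clic1, a chloride channel gene, rose from 184 ± 6.85 to 260.0 ± 15.0 CPM. Among the genes nearest to C4a on its other side, the kinase gene Stk19 and the RNA helicase gene Skiv2l did not pass, with log2 changes of 0.16 (SE 0.13) and -0.07 (SE 0.09). H2-Aa no longer passed when WT 2, WT 3 or Alb/MDA-9 2 was left out (log2 change -1.29, -1.29 and -1.10).

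**Figure D3:**
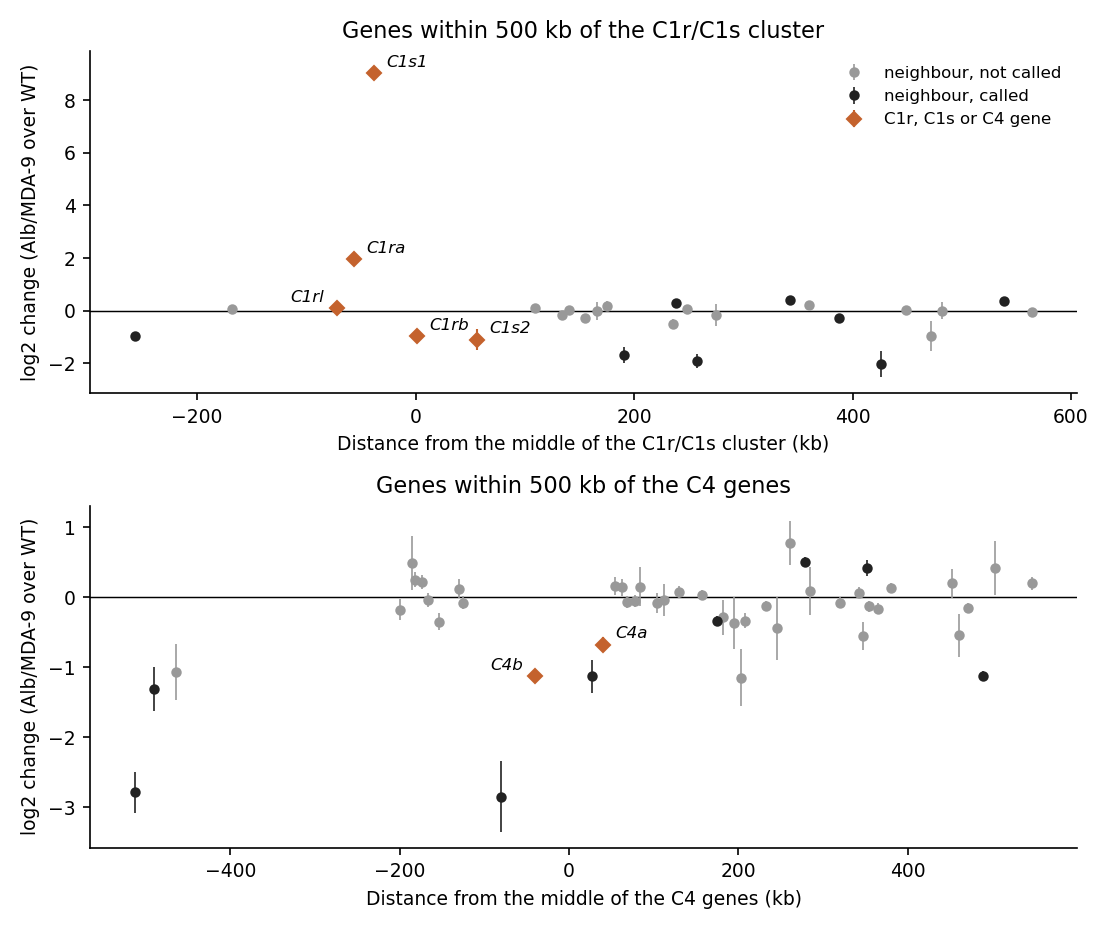
Log2 change of Alb/MDA-9 over WT with its SE for each tested gene within 500 kb, against the distance of the gene's middle from the middle of the C1r and C1s genes (top) or of the C4 genes (bottom). Diamonds are the C1r, C1s and C4 genes, black points neighbours that passed the test and grey points those that did not. In the top panel C1s1 lies at 9.04, and the neighbours outside the set run from -2.04 to 0.42.

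The other steps of the pathway were described by a list of 46 further complement genes. Of these, 40 were tested, 4 rose and 7 fell (27.5%, against 14.4% of all tested genes), with a median log2 change of 0.00 and with 6 genes too low to test. The direct partners of C1r, C1s and C4 moved little or in various directions. Serping1, which encodes the C1 inhibitor, had 413 ± 24.6 CPM in WT against 443 ± 25.1 CPM in Alb/MDA-9 (log2 change 0.10, SE 0.07, edgeR adjusted p = 0.405). C2, the second substrate of C1s and a neighbour of the C4 genes, had 9.93 ± 1.16 and 9.40 ± 0.601 CPM (log2 change -0.08, SE 0.14). C4bp, whose product binds C4b and limits the C3-cleaving enzyme, fell from 102 ± 4.91 to 83.5 ± 7.33 CPM (log2 change -0.29, SE 0.08, edgeR adjusted p = 0.0322). Cfi, which encodes the protease that inactivates C4b and C3b, rose from 465 ± 6.53 to 556 ± 22.7 CPM (log2 change 0.26, SE 0.07, edgeR adjusted p = 0.0230).

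Both of these calls depended on single libraries. C4bp no longer passed when WT 1, WT 2, Alb/MDA-9 2 or Alb/MDA-9 3 was left out (log2 change -0.27, -0.26, -0.31 and -0.22). Cfi no longer passed when WT 1, WT 2, WT 3 or Alb/MDA-9 2 was left out (0.25, 0.26, 0.27 and 0.22) and with library totals (0.15).

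Of the C1q genes, whose product carries C1r and C1s, C1qb fell from 26.0 ± 2.71 to 16.5 ± 2.41 CPM and C1qc from 16.6 ± 0.565 to 11.2 ± 3.04 CPM (log2 change -0.66 and -0.57, SE 0.13 and 0.16). C1qa had 27.6 ± 0.960 and 23.6 ± 5.06 CPM and did not pass (edgeR adjusted p = 0.286). The C1q genes are themselves among the macrophage markers and count in the sum of that list, which was lower in the same libraries. That sum is therefore not a separate measure for them, and the part of these cells was not tested. The C1qc call ended when any library but Alb/MDA-9 3 was left out, with log2 changes from -0.59 to -0.43.

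C3, the protein at which all complement pathways meet, rose from 3884 ± 231 to 4995 ± 231 CPM (log2 change 0.36, SE 0.08, edgeR adjusted p = 0.00978). None of 7 tested lectin pathway genes passed the edgeR test (1 was under an unadjusted p of 0.05 and 1 passed with DESeq2), and Masp2, whose product also cleaves C4 and C2, had 84.6 ± 6.84 and 87.2 ± 7.59 CPM. Of 6 tested terminal pathway genes 1 rose, C8b, from 195 ± 14.7 to 261 ± 21.0 CPM. Among 15 regulators Clu (clusterin) also rose, by 0.37 on the log2 scale (SE 0.09), and Cpn2, which encodes a carboxypeptidase N subunit, and Cd55, which encodes decay-accelerating factor, fell, with log2 changes of -0.71 (SE 0.15) and -1.47 (SE 0.42). The receptor genes Vsig4 and Cd93, of macrophages and endothelial cells, fell, with log2 changes of -1.16 (SE 0.20) and -0.69 (SE 0.08).

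Leaving out libraries ended several of these calls. The C3 call ended without WT 2 (log2 change 0.36), that of Clu without WT 2 or WT 3 (0.36 and 0.38) and with library totals (0.27), and that of Cpn2 without WT 2 (-0.67). The Cd55 call ended without any library but Alb/MDA-9 3 (-1.63 to -1.09) and with reads of either strand (-1.48), and Cd55 was not tested at a minimum count of 50. The number of rises became 1 with WT 2 left out, 2 with WT 3 and 7 with Alb/MDA-9 3, and the number of falls became 4 with WT 1 left out, 3 with WT 2 and 4 with Alb/MDA-9 2.

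**Figure D4:**
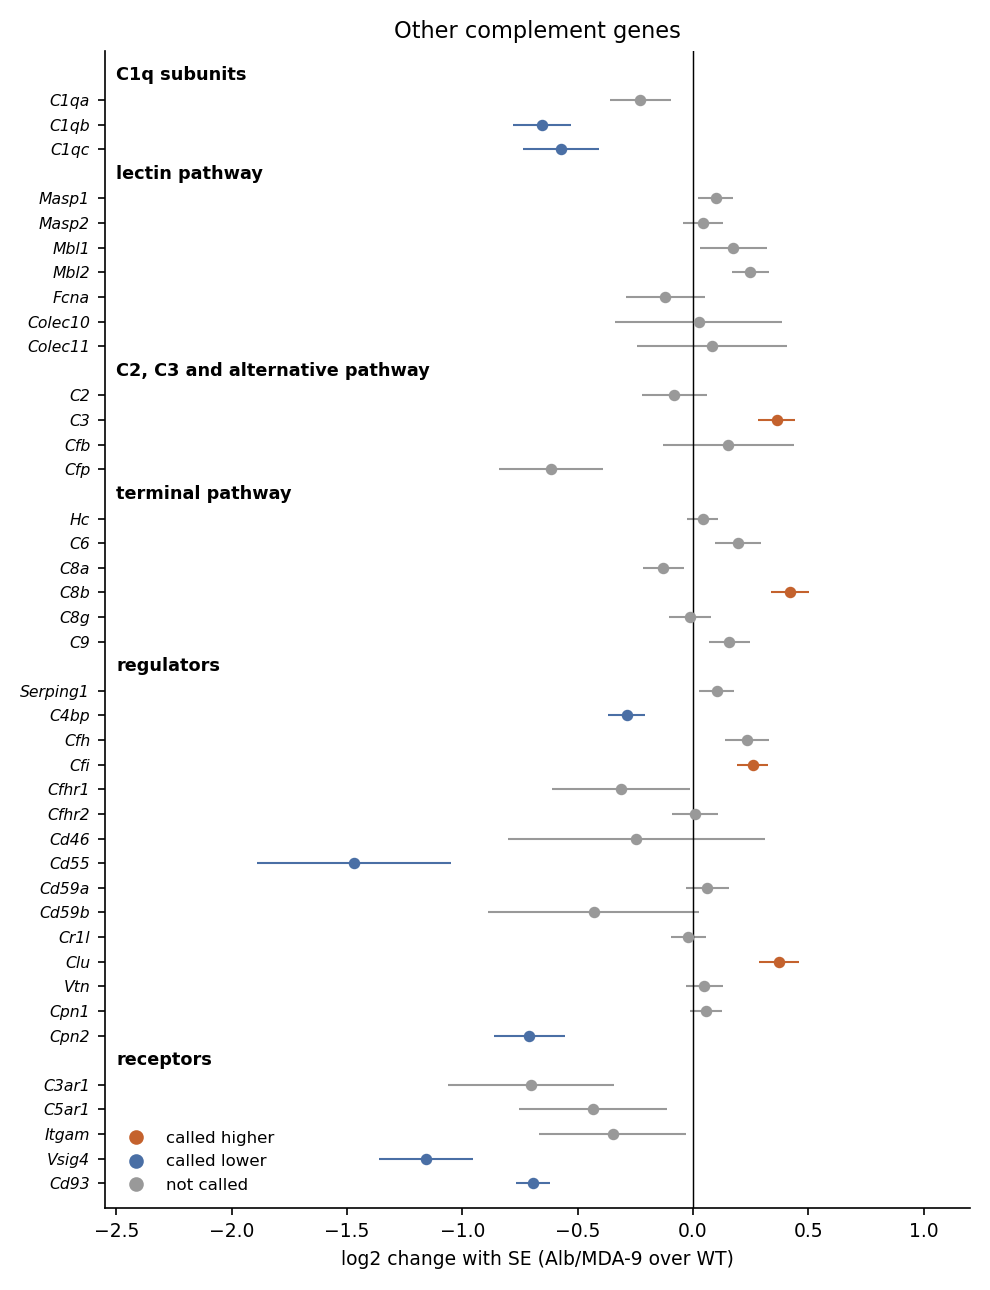
Log2 change of Alb/MDA-9 over WT with its SE for the 40 tested complement genes outside the set, grouped by role; orange points passed the test as higher, blue as lower and grey did not pass. Most points lie within 0.5 of 0, and Cd55 lies lowest at -1.47.

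Genes with the most similar pattern across the 6 libraries were found by the root mean square difference of log2 CPM centred on each gene's own mean. With 2 groups of 3 libraries this distance depends strongly on the genotype difference, on which the set was chosen. It therefore mainly returns genes with a similar log2 change, and shared regulation was not tested. The gene closest to C1s1 was Spp1 (osteopontin, on chromosome 5) at 0.90, followed by Cyp4a10 at 2.46 and Serpina5 at 2.64. Their log2 changes were 7.77, 4.29 and 4.37, against 9.04 for C1s1, so Cyp4a10 and Serpina5 were far from it. C1ra was nearest to Trim15 (0.15), to Prg4, which encodes lubricin (0.15; 136 ± 8.77 CPM in WT against 512 ± 55.4 CPM in Alb/MDA-9), and to Serpina12 (0.20). C1rb was nearest to Gipc2 (0.06), the bile salt pump gene Abcb11 (0.06) and Ch25h (0.07). C4b was nearest to H2-D1 (0.06), which lies in its own 500 kb window, then to Ggta1 (0.07) and Esm1 (0.09), and C4a to Enpp1, Cd93 and Sept11 (0.05, 0.06 and 0.06). C1rl, which was nearly level, was nearest to Kdm5b, Pinx1 and Taok1 (0.02 each), and C1s2 to Fam171b, Mir5125 and Zc4h2 (0.26, 0.27 and 0.29).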

How the data were processed

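Each deposited table holds raw read counts per gene made with STAR, per the file layout, with an unstranded column and a column per strand. The builds mm10 and GRCm38 and the tools STAR 2.7.9a, Trim Galore 0.6.6, FastQC 0.11.2 and edgeR 3.18.1 are listed in the submitters' processing notes. Options, read length and annotation release: not given in the sources used here. The 4 summary rows were left out; reads mapped to several places were 18.7 to 20.2% of all reads and unmapped reads 9.22 to 10.4%. The stranded column with over 80% of stranded reads was used, which held 97.1% in the median library.

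Symbols, coordinates and exon lengths came from GENCODE M21, which matched 55227 of 55487 identifiers. Counts were filtered with filterByExpr (minimum count 10), scaled by TMM and fitted with edgeR 4.0.16 (R 4.3.3) by quasi-likelihood F tests, on genotype alone. Benjamini-Hochberg adjustment ran over all 13296 genes, with a threshold of 0.05. SEs are the log2 change divided by the square root of F. Family sums were fitted in a table where the paralogues' rows were replaced by their sum. Adjusted p-values reflect only how these libraries varied, which may be technical. The script was tested on simulated data. The set, gene lists and tests were chosen with earlier results of these data known. Named neighbours are the called genes with official symbols and at least 1 CPM in a group, up to 6 per window by size of change, beside level ones named after their values were seen; named complement genes are all those called and the partners of C1r, C1s and C4. The 3 most similar genes per member had to have official symbols. DESeq2 1.42.0 and other scalings, filters, columns and left-out libraries were alternatives.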

Additional observations from a re-analysis of the deposited data

How the results depend on the processing

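The log2 changes of C1s1, C1s2, C1ra, C1rb, C4a and C4b kept their direction under every setting that tested them (C1s2 was not tested at a minimum count of 50), and that of C1rl turned negative with library totals (-0.02), under which the median change over all genes was -0.11. With library totals the C1r sum changed by -0.25 and the C4 sum by -1.20, 525 genes were higher and 1622 lower, and 2 other complement genes rose. With reads of either strand, where reads over C1s1 and the antisense gene Gm16567 are not counted, the C1s sum changed by 5.61, and C4b held 91.3% of C4 reads in Alb/MDA-9. Leaving out 1 library gave 1018 to 2386 changed genes (1131 without Alb/MDA-9 2, 1168 without WT 1, 1018 without WT 2), 503 to 1178 higher and 515 to 1208 lower. It gave 1 to 7 rises and 3 to 8 falls among other complement genes, and 5 to 9 changed neighbours of the C1r and C1s genes. Within 250 kb 4 of 14 tested neighbours of the C1r and C1s genes (28.6%) and 4 of 29 of the C4 genes (13.8%) changed. Within 1000 kb these were 12 of 34 (35.3%) and 18 of 91 (19.8%), against 14.4% of all tested genes. Of stretches of 75 bases, 75.2% (C1s1), 83.7% (C1s2), 57.6% (C1ra), 50.1% (C1rb), 80.3% (C4a) and 77.3% (C4b) were in no other gene, and of 50 bases 64.9%, 73.1%, 49.2%, 39.5%, 69.4% and 65.4%. Among members, 6 passed with DESeq2, without a low-count filter and without Alb/MDA-9 1, and 5 under the other settings. With the replicate number as a block 1601 genes changed, and the calls of Cfi, Cops7a and Tpi1 ended. Same-numbered libraries did not deviate together from their group means (correlations -0.04, -8.7e-05 and -0.06). This cannot show whether same numbers stand for a shared preparation, which the labels do not say. The cause of these shifts was not tested. Counts near 0, as for C1s1 in WT, limit the precision of its change.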

Other observations

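In unscaled reads, the 7 genes together took 0.0506%, 0.0506% and 0.0513% of the reads in genes in WT 1, 2 and 3. In Alb/MDA-9 1, 2 and 3 they took 0.0502%, 0.0513% and 0.0495%. The TMM factors averaged 1.04 in WT and 0.965 in Alb/MDA-9, so on the CPM scale used above Alb/MDA-9 stands higher relative to WT than in these shares. Summed over the 3 libraries and unscaled, C1s1 gained 12285 reads and C1ra 1403, while C4b lost 11299, C1rb 2182 and C4a 506. The set was picked on this comparison, and a link between these differences was not tested.

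Reads on the strand opposite to the annotation were rare at 6 of the 7 genes and not at C4a. C4a had 21, 31 and 15 such reads in WT 1, 2 and 3 and 45, 18 and 31 in Alb/MDA-9 1, 2 and 3, which overlap between the groups. As a share of its stranded reads they were 3.83 to 6.72% in WT and 7.73 to 15.8% in Alb/MDA-9, without overlap, beside fewer reads of the annotated strand in Alb/MDA-9. Summed over libraries the shares were 5.29% (exact 95% interval 4.12 to 6.67%) and 11.9% (9.76 to 14.4%), and the difference was not tested. Over the 6 libraries the share at C4a was 7.84%, against 0.0575% at C4b (0.0329 to 0.0934%) and 0.396% at C1rl. These intervals pool reads, cover counting error only and leave out the spread between libraries. Alb/MDA-9 1 (15.8%), Alb/MDA-9 2 (7.73%), WT 2 (6.72%) and WT 3 (3.83%) lay outside the C4a interval of their group.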
